A study of Sus scrofa with 24 samples.

Results

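Activator protein 1 (AP-1) is a family of paired transcription factors, and 8 of its genes, FOS, FOSB, FOSL1, FOSL2, JUN, JUNB, JUND and ATF3, were followed here in pig bronchial epithelium. They were chosen by name. Of the 25880 pig genes in the deposited count table, 7 matched a member by gene identifier. JUND had no symbol under its identifier and was matched by its position, where RefSeq places JUND. All 8 passed the filter on low counts, as did 14172 genes in all.

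AP-1 proteins carry a basic leucine zipper (bZIP), the domain through which they pair and grip DNA. JUN proteins pair with each other or with FOS proteins, whereas FOS proteins need a JUN partner. ATF3 belongs to the related ATF group, pairs with JUN proteins and often represses its targets. Several of these genes are immediate early genes: their transcripts appear within minutes of a stimulus, through factors that are already in the cell and are switched on by the MAP kinases ERK, JNK and p38, and are soon degraded. In airway epithelium AP-1 is known for its part in cytokine genes, wound repair and squamous differentiation.

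Cells came from the bronchi of wild-type pigs aged 1 month and were differentiated with their upper surface in air. Cultures received vehicle (DMSO) or 20 µM SB203580, an inhibitor of p38 kinases, for 1 h. Flagellin, the bacterial flagellum protein sensed by the receptor TLR5, was then added at 100 ng/ml, or PBS in its place, and RNA was taken at 2 h or 24 h. This gave 6 groups of 4 libraries, named here PBS and flagellin (both after DMSO) and SB203580 plus flagellin, each at both times. No group with SB203580 alone was analysed here, so an action of the inhibitor without flagellin cannot be told apart from an action on the flagellin response. The cultures are primary cells of a mixed epithelium, and the labels do not say whether replicates came from different animals, so the p-values rest on differences among these libraries alone, and some of those may be technical.

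Libraries held 26345945 to 36267289 counts in pig genes (median 32494270). Replicates 1 and 2 formed a set that stood apart from replicates 3 and 4 in every group. Summed club and secretory markers (11 of 11 matched) lay at 2054 to 3824 CPM (counts scaled to a common library total) in the 12 libraries of the former and at 803 to 1375 in the 12 of the latter, and summed basal cell markers (8 of 10) at 5367 to 7824 and 9269 to 12469. The basal sum rested largely on COL17A1, which lay at 3932 to 9806 CPM over the 24 libraries, and KRT5 and KRT14 were not matched. The mean log2 level of the 8 basal genes overlapped between the sets, at 6.21 to 7.13 and 6.53 to 6.89. Summed squamous markers (7 of 14) lay at 2084 to 11892 and 1746 to 2484. Of defining markers, the basal genes COL17A1 and TP63 were present in every library and the ciliated gene FOXJ1 lay at 1.53 to 22.8 CPM. The leukocyte genes CD3E and CD163 were at 0 in all 24 libraries, PTPRC was at 0 in 18, and the endothelial gene CDH5 was at 0 in 19. In the same 2 lists ERG was at 0 in 24 libraries, MPO and MS4A1 in 23, EMCN in 22 and NKG7 in 21. TEK was at 0 in 9, CSF1R in 5 and ITGAM in 2. Some genes of these 2 lists were at 0 in no library. Among them were CD14 (6.30 to 119 CPM), CD68 (5.36 to 28.4), LYZ (1.74 to 21.5) and the endothelial gene KDR (77.5 to 509). In such bulk samples, fewer cells of a type and less RNA per cell cannot be told apart. Tests used edgeR's quasi-likelihood F test over all 24 libraries with no block, and a gene was called at an adjusted p under 0.05 (Benjamini-Hochberg over 14172 genes). The fit was repeated with the replicate number as a block, and with a term, 1 per time, for the set of replicates (the set term), whose choice was made with earlier results known.

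Levels per length were compared first. Values per length (RPKM) were computed from CPM and the deposited gene lengths, and over all 24 libraries the order of the mean RPKM was JUN (175), JUNB (166), JUND (98.3), ATF3 (78.9), FOSL2 (74.6), FOS (22.9), FOSB (15.8) and FOSL1 (13.6). On these means the 3 JUN genes stood above the 4 FOS genes, while in PBS at 2 h FOSL2 (99.4) lay beside JUND (97.7). JUN and JUNB did not differ beyond their spread, JUN being the higher in 13 of 24 libraries. The order of 3 other pairs depended on the time: FOSB was above FOSL1 in 12 of 12 libraries at 2 h and 0 of 12 at 24 h, ATF3 above FOSL2 in 10 and 2, and JUND above ATF3 in 5 and 11. Other steps were steadier, with JUNB above JUND in 23 of 24 and FOSL2 above FOS in 24 of 24. FOSL2 had the highest level per length of the FOS genes at both times, at 99.4 ± 7.17 RPKM (SD, n = 4) in PBS at 2 h, when FOS was at 34.4 ± 7.79, FOSB at 23.9 ± 5.75 and FOSL1 at 12.2 ± 2.50.

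**Figure D1:**
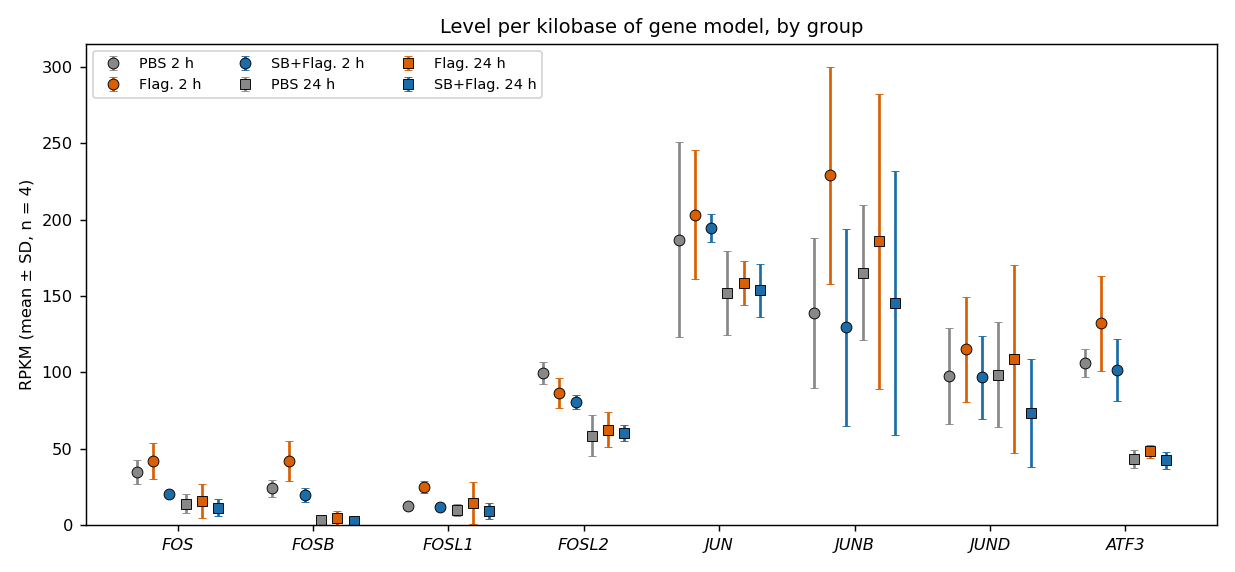
Mean RPKM (y axis) of each AP-1 gene in the 6 groups, with circles for 2 h, squares for 24 h and bars for the SD over 4 libraries (bars that would pass below 0 end at the axis). JUN and JUNB stand highest, and FOSB drops from 23.9 in PBS at 2 h to 2.92 at 24 h.

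The deposited coordinates set limits on some of these values. FOS (chromosome 7, 98449508 to 98453576) and FOSL2 (chromosome 3, 110819947 to 110842850) have gene models of 2748 and 5971 bases. FOSB (chromosome 6, 51838277 to 51842399), JUNB (chromosome 2, 66214594 to 66215637) and JUND (chromosome 2, 59531154 to 59532196) have models of 978, 1044 and 1041 bases, which may hold coding sequence only, so that their RPKM rests on other parts of the transcript than that of the longer models. JUN lies at chromosome 6, 153685682 to 153687639, FOSL1 at chromosome 2, 6430153 to 6439029, and ATF3 at chromosome 9, 130772262 to 130785599. The pig assembly is not given in the sources used here.

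JUNB needs a further word, because all 1044 of its exonic bases lie within exons of PRDX2, a peroxiredoxin gene on the opposite strand, and 331 of them also within HOOK2. The use of strand in counting is not given in the sources used here. JUNB had 2694 to 10427 counts per library, and exceeded PRDX2 (6853 to 11271) in 1 of 24 libraries. PRDX2 itself differed by 0.10 (log2, SE 0.096) between flagellin and PBS at 2 h and by -0.012 (SE 0.096) between SB203580 plus flagellin and flagellin, neither of them called (edgeR adjusted p of 1 and 1.00). HOOK2 differed by 0.12 (SE 0.22) and -0.0024 (SE 0.22), and JUNB by 0.72 (SE 0.43) and -0.82 (SE 0.43) in the same comparisons. The part of reads from these genes in the JUNB counts was not tested. FOSL1 shares 609 bases with CCDC85B on the opposite strand, which had 223 to 790 counts against 605 to 4650 for FOSL1.

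The early response to flagellin was examined at 2 h. FOSL1, JUNB and FOSB were the members that stood highest over PBS, FOSL2 lay below PBS in every pair of replicates, and JUN, JUND, FOS and ATF3 had log2 differences of 0.12 to 0.32. None of the 8 was called in the fit with no block (edgeR, 0 of 8, and 0 at an unadjusted p under 0.05), against 46 genes, or 0.325% of those tested. DESeq2 called 0 of 8 too (1 at an unadjusted p under 0.05), against 0.741%. With the set term 1 of 8, JUNB, was called, against 2.24% of all genes, and with the replicate block 0 of 8, against 1.07%. The median log2 difference of the members was 0.30, and that of all tested genes -0.0027.

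FOSL1, a FOS protein without a classical activation domain, was at 46.3, 72.8, 63.1 and 51.0 CPM in PBS replicates 1 to 4, and at 106, 117, 145 and 107 with flagellin. Every flagellin library thus lay above every PBS library, which held for 1 of the 8 members and for 4.66% of all genes. The log2 difference was 1.03 (SE 0.49, edgeR adjusted p = 0.982; with the set term 1.02, SE 0.33, adjusted p = 0.133), higher in 4 of 4 pairs. This size did not pass the test across all genes.

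JUNB, a JUN protein that often counters JUN, was at 179, 198, 94.3 and 109 CPM in PBS and at 278, 313, 222 and 143 with flagellin. Replicates 3 and 4 were the low libraries in both groups, so the groups overlapped as wholes, while within each set they did not. The log2 difference was 0.72 (SE 0.43, edgeR adjusted p = 1). With the set term JUNB rose by 0.75 (SE 0.18, edgeR adjusted p = 0.0336), by 0.65 in replicates 1 and 2 and 0.86 in replicates 3 and 4, and with the replicate block the adjusted p was 0.0707. Leaving out each of the 8 libraries in turn kept the JUNB call of the set-term fit in 3 of 8 cases, with edgeR adjusted p from 0.0378 to 0.159 and differences from 0.57 to 0.83.

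FOSB, the inducible partner of JUN proteins best known from neurons, was at 26.7, 28.6, 22.5 and 15.9 CPM in PBS and at 24.7, 52.8, 49.0 and 36.8 with flagellin. In replicate 1 flagellin lay slightly below PBS, by -0.11 on the log2 scale, while the other 3 pairs lay between 0.88 and 1.21. The log2 difference was 0.80 (SE 0.69; with the set term 0.82, SE 0.29, edgeR adjusted p = 0.161).

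FOS, the founding immediate early gene of the family, was at 125, 79.9, 94.6 and 79.0 CPM in PBS and at 82.3, 161, 107 and 111 with flagellin. It was lower with flagellin in replicate 1 and higher in the other 3 pairs, and its log2 difference was 0.28 (SE 0.43). ATF3 was at 256, 216, 246 and 218 CPM in PBS and at 228, 269, 389 and 278 with flagellin, a log2 difference of 0.32 (SE 0.16, edgeR adjusted p = 0.997) with replicate 3 the highest. FOSL2 was at 569.6, 552, 649.9 and 602 CPM in PBS and at 475, 500.4, 603 and 487 with flagellin, lower in 4 of 4 pairs by small amounts (log2 difference -0.20, SE 0.15).

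JUN and JUND, a stress-inducible and a mostly constitutive JUN gene, differed little. JUN was at 267, 205, 435 and 418 CPM in PBS and at 274, 348, 456 and 362 with flagellin, a log2 difference of 0.12 (SE 0.19). JUND was at 104, 147, 74.2 and 81.2 CPM in PBS and at 140.1, 159, 99.1 and 81.3 with flagellin, a log2 difference of 0.24 (SE 0.38). The groups overlapped for both. JUN was higher with flagellin by 0.40 in replicates 1 and 2 and lower in replicates 3 and 4 (-0.048), and its sign changed when PBS replicate 2 or flagellin replicate 3 was left out. The ratio of FOSL1 to FOSL2, 2 FOS genes that compete for JUN partners, was higher with flagellin in 4 of 4 pairs. Its log2 value was -2.13 ± 0.061 (SD, n = 4) with flagellin and -3.37 ± 0.32 in PBS, a difference of 1.24. The exact permutation test gave p = 0.0286, the smallest that 4 against 4 allows, and 0.114 adjusted over 12 such ratio tests.

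**Figure D2:**
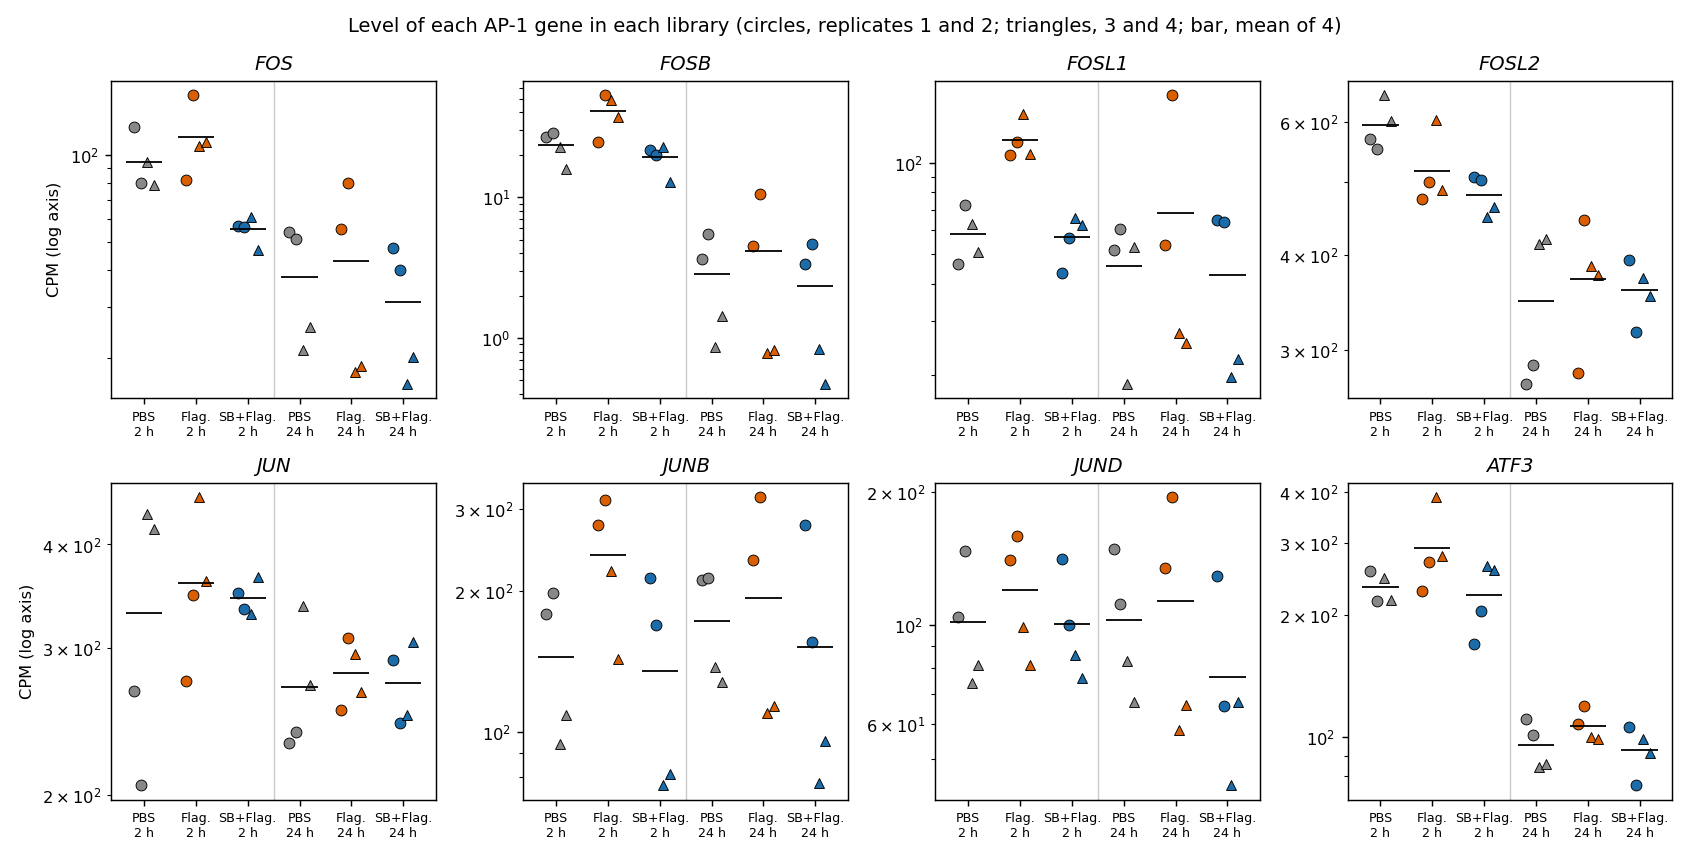
CPM on a log axis of the 8 AP-1 genes in every library, by group along the x axis, with circles for replicates 1 and 2, triangles for replicates 3 and 4 and bars for the mean. The 4 flagellin libraries at 2 h lie above all PBS libraries for FOSL1 (106 to 145 against 46.3 to 72.8), and JUNB and JUND are mostly lower in replicates 3 and 4.

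The effect of p38 inhibition on the flagellin-treated cultures was examined at the same time. All 8 members had a negative log2 difference between SB203580 plus flagellin and flagellin, with a median of -0.60 against 0.012 over all tested genes. The largest were FOSB, FOSL1, FOS and JUNB, and 3 members (FOS, FOSB, FOSL1) did not overlap between the groups, against 2.57% of all genes. With no block 0 of 8 were called (edgeR, 3 of 8 at an unadjusted p under 0.05; DESeq2, also 0 and 3, against 0.107% of genes), against 1 gene in all, or 0.00706%. With the set term 2 of 8, FOS and JUNB, were called lower, against 0.374% of all genes in either direction and 0.261% lower. The replicate block called 0 of 8, against 5 genes, or 0.0353%.

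FOS was at 56.9, 56.5, 61.2 and 47.2 CPM with SB203580 plus flagellin, below all 4 flagellin libraries (82.3 to 161) and also below all 4 PBS libraries (79.0 to 125). The log2 difference from flagellin was -1.06 (SE 0.43, edgeR adjusted p = 1.00), lower in 4 of 4 pairs. With the set term FOS fell by 1.05 (SE 0.19, edgeR adjusted p = 0.0170), and fell by 1.11 and by 1.01 in the 2 sets.

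That FOS call needed nearly all the libraries. It was kept in 2 of 8 cases when each was left out, with edgeR adjusted p from 0.0136 to 0.0784 and differences from -1.21 to -0.86. Against PBS, FOS was lower by -0.77 (SE 0.43) with no overlap and lower in 4 of 4 pairs. The set-term fit called this (log2 difference -0.77, SE 0.19, edgeR adjusted p = 0.0430), and it was kept in 2 of 8 cases on leaving out a library (0.0371 to 0.168). The fit with the replicate block did not (edgeR adjusted p = 0.474).

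JUNB was at 214, 169, 76.8 and 81.3 CPM with SB203580 plus flagellin, lower than flagellin in 4 of 4 pairs and close to PBS, from which it differed by -0.10 (SE 0.43). The log2 difference from flagellin was -0.82 (SE 0.43), and with the set term JUNB fell by 0.91 (SE 0.19, edgeR adjusted p = 0.0328; 0.0949 with the replicate block). The difference was -0.64 in replicates 1 and 2 and -1.21 in replicates 3 and 4. Leaving out each library kept the set-term call in 2 of 8 cases (edgeR adjusted p 0.0326 to 0.166, differences -1.04 to -0.73).

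FOSL1 was at 43.5, 56.3, 65.6 and 62.3 CPM with SB203580 plus flagellin, overlapping its range in PBS (46.3 to 72.8), and lay below every flagellin library. The log2 difference from flagellin was -1.06 (SE 0.49, edgeR adjusted p = 1.00; with the set term -1.07, adjusted p = 0.287). FOSB was at 21.7, 20.1, 22.6 and 12.8 CPM, again below every flagellin library, with a log2 difference of -1.08 (SE 0.69; with the set term -1.09, adjusted p = 0.139). Neither passed the test, and neither stood apart from PBS, with log2 differences of -0.034 (SE 0.49) for FOSL1 and -0.28 (SE 0.69) for FOSB.

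ATF3 was at 169.7, 204, 263 and 257 CPM with SB203580 plus flagellin, lower than flagellin in 4 of 4 pairs (log2 difference -0.38, SE 0.16, edgeR adjusted p = 1.00). JUN, at 349, 334, 329.8 and 366 CPM, overlapped flagellin (log2 difference -0.062, SE 0.19), as did JUND (-0.25, SE 0.38) and FOSL2 (-0.10, SE 0.15). Fitted within each set, the FOSL2 difference was 0.043 in replicates 1 and 2 and -0.26 in replicates 3 and 4. FOSL2 had a log2 difference of -0.30 (SE 0.15, edgeR adjusted p = 1.00) from PBS, without overlap. Against PBS 2 of 8 members, FOS and FOSL2, did not overlap, where 4.25% of all genes did not. In that comparison 0 of 8 were called with no block (edgeR, 1 at an unadjusted p under 0.05; DESeq2, 0 and 1, against 0.607% of genes), against 0.183% of genes, 1 of 8 with the set term, against 1.98%, and 0 of 8 with the replicate block, against 0.804%.

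Both 2 h comparisons share the 4 flagellin libraries, so the members' log2 differences in the flagellin and the inhibitor comparison are only placed side by side: 1.03 and -1.06 for FOSL1, 0.72 and -0.82 for JUNB, 0.80 and -1.08 for FOSB, and 0.28 and -1.06 for FOS. Ratios moved in the inhibitor comparison too. FOSL1 over FOSL2 differed by -0.97 and FOS over FOSL2 by -0.92 on the log2 scale, each lower in 4 of 4 pairs, with exact permutation p = 0.0286 and 0.114 after adjustment over 12 tests. JUNB over JUN differed by -0.86, also lower in 4 of 4 pairs (exact permutation p = 0.171, 0.411 adjusted). Ciliated markers (11 of 14 matched) summed to 29.9 to 78.0 CPM in PBS, 29.7 to 90.5 with flagellin and 34.0 to 50.8 with SB203580 plus flagellin, and squamous markers to 2000 to 9907, 2005 to 7375 and 1824 to 11892, ranges that overlapped. Their part in these differences was not tested.

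**Figure D3:**
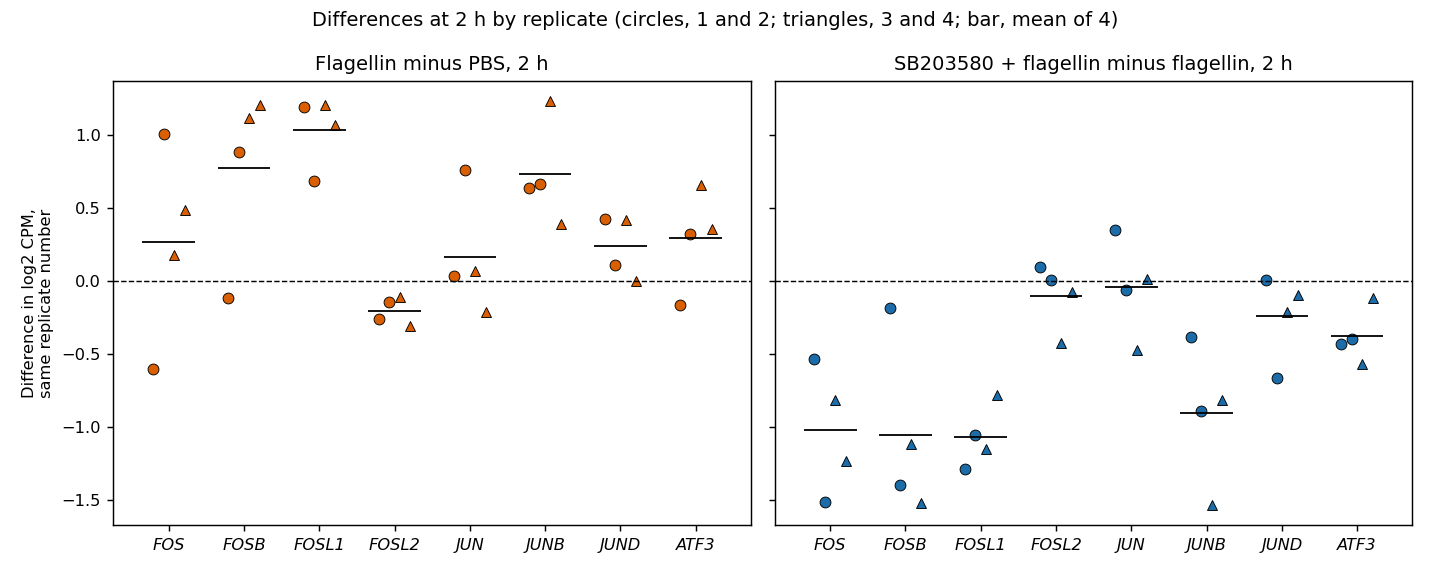
Difference in log2 CPM (y axis) between libraries of the same replicate number at 2 h, flagellin minus PBS (left) and SB203580 plus flagellin minus flagellin (right), for each AP-1 gene, with bars for the mean of 4. FOSL1 and JUNB are above 0 in 4 of 4 pairs on the left, and FOS, FOSB, FOSL1, JUNB and ATF3 are below 0 in 4 of 4 on the right.

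At 24 h the members did not separate by treatment. Between flagellin and PBS 0 of 8 were called (edgeR with no block, 0 at an unadjusted p under 0.05; DESeq2, 0 and 0, against 0.00706% of genes), where 0% of genes were called, and 0 of 8 did not overlap, against 0.741%. For 7 of the 8 (all but ATF3) the difference fitted within replicates 1 and 2 was positive and that within replicates 3 and 4 negative. Single pairs departed from this for FOSL1 in replicate 3 (0.55) and JUND in replicate 1 (-0.14). FOSL1 lay at 53.5, 167, 27.5 and 25.4 CPM with flagellin and at 51.5, 60.3, 18.7 and 52.7 in PBS, a log2 difference of 0.96 in the former set and -0.43 in the latter.

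Flagellin replicate 2 at 24 h decided most of these values. It was the highest of the 12 libraries at 24 h for FOS (80.4 CPM), FOSB (10.6), FOSL1 (167), FOSL2 (445), JUNB (318), JUND (194) and ATF3 (119), and its squamous markers summed to 11843 CPM where the group's lowest library was at 1841. Without it the log2 difference between flagellin and PBS was -0.36 for FOSL1, -0.49 for FOSB, -0.31 for FOS, -0.18 for JUNB and -0.25 for JUND, against 0.58, 0.53, 0.18, 0.17 and 0.14 with it. Flagellin replicate 2 at 24 h also had the lowest scaling factor of all libraries (TMM, 0.836), which raises its CPM. It held 11939 FOSL2 and 3196 ATF3 counts of 32063842. At 24 h PBS replicate 3 held 13377 FOSL2 counts of 30629024, and PBS replicate 1 held 3442 ATF3 counts of 30402436. On such unscaled totals it was thus not the highest for FOSL2 and ATF3. The part of the squamous cells was not tested.

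Between SB203580 plus flagellin and flagellin at 24 h all 8 log2 differences were again negative (median -0.41, against 0.0029 over all genes), from -0.84 for FOSB to -0.043 for JUN. None was called (edgeR with no block 0 of 8, and 0 at an unadjusted p under 0.05; DESeq2, 0 and 0, against 0.00706% of genes; 0% of genes), and the groups overlapped for each, where 1.43% of genes did not. Between SB203580 plus flagellin and PBS at 24 h 0 of 8 were called as well (edgeR with no block, 0 at an unadjusted p under 0.05, against 0.00706% of genes; DESeq2, 0 and 0, against 0.0706%), and 0 of 8 did not overlap, against 2.78% of genes. Without flagellin replicate 2 the differences from flagellin were 0.25 for FOSL1, 0.16 for FOSB, 0.034 for FOSL2 and 0.00050 for FOS. The negative sign thus rested on that library for these genes. No member passed a test of a different effect at 24 h than at 2 h (interaction). With no block edgeR called 0 of 8 for flagellin and 0 of 8 for SB203580, against 0.0423% and 0% of genes. In both 0 were at an unadjusted p under 0.05, and DESeq2 gave the same, against 0.101% and 0% of genes. The set term called 0 of 8 in both (edgeR), against 0.268% and 0% of genes. With it 1 of 8 for flagellin and 2 of 8 for SB203580 had an unadjusted p under 0.05, against 914 and 652 of 14172 genes. The replicate block called 0 of 8 too, with 1 and 0 at that p, against 632 and 366 genes.

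For FOSB, ATF3, FOSL2 and FOS the largest changes lay between 2 h and 24 h. They were also seen in the PBS cultures, which received DMSO and PBS but no flagellin. For JUNB and FOSL1 the differences between treatments at 2 h were larger than the changes over time (edgeR with no block). In PBS 3 of 8 members, FOSB, ATF3 and FOSL2, fell (edgeR with no block), against 10.2% of genes called in either direction and 4.88% lower, and 4 of 8 did not overlap between the times, against 17.2% of genes. FOS was called as well with the replicate block (4 of 8, against 22.5% of genes), as it was with the set term (33.2%) and by DESeq2 (14.4%).

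FOSB showed the widest range of the members. It was at 15.9 to 28.6 CPM in PBS at 2 h and at 3.66, 5.46, 0.866 and 1.43 at 24 h, where the lowest library held 28 reads. The log2 change was -3.04 (SE 0.75, edgeR adjusted p = 0.0138), lower in 4 of 4 pairs. With flagellin, where FOSB stood at 4.49, 10.6, 0.782 and 0.823 CPM at 24 h, it fell by 3.30 (SE 0.76, adjusted p = 0.00999). With SB203580 plus flagellin FOSB fell by 3.06 (SE 0.76, edgeR adjusted p = 0.0177), a call lost without replicate 3 at 24 h (adjusted p = 0.0520). In each treatment replicates 3 and 4 were the lowest at 24 h, and in PBS the change was -2.58 in replicates 1 and 2 and -4.05 in replicates 3 and 4.

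ATF3 changed most evenly. It was at 216 to 256 CPM in PBS at 2 h and at 110.5, 101, 84.4 and 85.6 at 24 h, without overlap, and fell by 1.29 (SE 0.16, edgeR adjusted p = 5.5e-05). It fell by 1.45 with flagellin (SE 0.16, adjusted p = 1.2e-05) and by 1.27 with SB203580 plus flagellin (SE 0.16, adjusted p = 8.8e-05). All 12 libraries at 24 h (76.0 to 119 CPM) were below all 12 at 2 h (169.7 to 389).

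FOSL2 was at 271, 287, 414 and 421 CPM in PBS at 24 h, down from 552 to 649.9, and fell by 0.77 (SE 0.15, edgeR adjusted p = 0.00232). With flagellin the log2 change was -0.47 (SE 0.15, adjusted p = 0.0507), called with the replicate block (adjusted p = 0.0210), the set term and DESeq2, and without replicate 2 at 24 h (-0.56, adjusted p = 0.0279). With SB203580 plus flagellin FOSL2 had a log2 change of -0.42 (SE 0.15, edgeR adjusted p = 0.0897; 0.0382 with the replicate block). A difference of the FOSL2 change between flagellin and PBS was not detected (0.30, SE 0.21).

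FOS was at 54.2, 51.3, 21.2 and 25.6 CPM in PBS at 24 h, below every PBS library at 2 h. Its log2 change was -1.31 (SE 0.43, edgeR adjusted p = 0.0584), and FOS fell with the replicate block (adjusted p = 0.00498). With flagellin FOS, at 55.4, 80.4, 17.9 and 18.6 CPM, fell by 1.42 (SE 0.43, edgeR adjusted p = 0.0477). This call sat at the threshold: it was lost in 7 of 8 cases when a library was left out, each but flagellin replicate 2 at 24 h, with edgeR adjusted p from 0.0567 to 0.138, and lost with RLE scaling and without a count filter. With SB203580 plus flagellin the FOS change was -0.84 (SE 0.43, adjusted p = 0.284; 0.0465 with the replicate block).

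With flagellin 3 of 8 members (FOS, FOSB, ATF3) fell between the times, against 7.9% of genes called and 3.68% lower, and with SB203580 plus flagellin 2 of 8 (FOSB, ATF3), against 6.88% called and 3.18% lower. Each was 4 of 8 with the replicate block, against 18.8% and 17.1% of genes. In both treatments 4 of 8 did not overlap between the times, against 14.7% and 11.7% of genes. FOSL1 had a log2 change of -0.80 (SE 0.49) with flagellin. It was called lower with the set term (-1.10, SE 0.33, edgeR adjusted p = 0.0196) and without flagellin replicate 2 at 24 h (-1.73, adjusted p = 0.0158). The 3 JUN genes were not called between the times in any treatment: the changes ran from -0.36 to -0.30 for JUN, from -0.30 to 0.25 for JUNB and from -0.40 to 0.012 for JUND. Those values are of the fit with no block, and the block and the set term called none of the 3 either. Fitted in replicates 3 and 4 alone, JUN fell in PBS (-0.48, edgeR adjusted p = 0.0300) and with flagellin (-0.55, adjusted p = 0.0146), and JUNB fell with flagellin (-0.71, adjusted p = 0.0119). These fits rest on 2 libraries per group, and the share of all genes called in them is not given here. In replicates 1 and 2 JUN averaged 236 CPM at 2 h and 234 at 24 h in PBS, and 311 and 281 with flagellin. JUNB averaged 296 and 276 there with flagellin. JUNB was higher at 24 h in 4 of 4 pairs of PBS libraries and not called (0.25, SE 0.43). Endothelial markers (8 of 9 matched) summed to 100.7 to 279 CPM in PBS at 2 h and 349 to 521 at 24 h. In that sum CDH5 and ERG were near 0, and KDR alone lay at 77.5 to 509 CPM over the 24 libraries. Basal markers summed to 5404 to 9539 and 5917 to 10918 at the same times. The part of either list in these changes was not tested. Squamous markers in PBS summed to 5356 and 9907 CPM in replicates 1 and 2 at 2 h and to 2084 and 2587 at 24 h, and lay at 1746 to 2300.3 in replicates 3 and 4 at both times. In replicates 3 and 4 alone the PBS log2 changes were -4.05 for FOSB, -1.88 for FOS, -1.44 for ATF3 and -0.58 for FOSL2, against -2.58, -0.94, -1.14 and -0.99 in replicates 1 and 2.

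**Figure D4:**
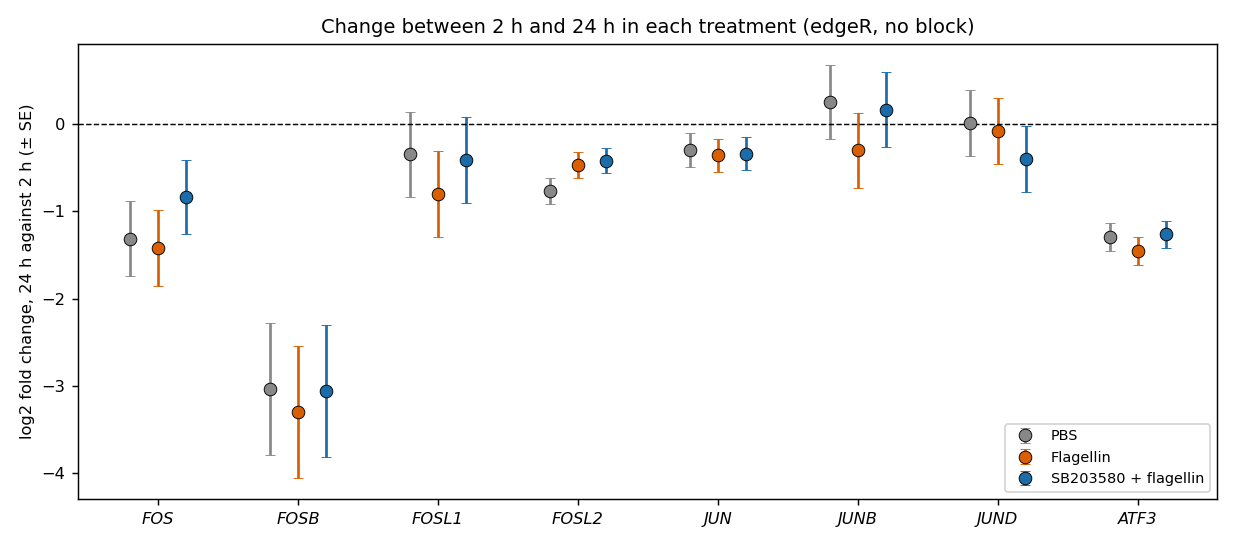
Log2 fold change between 24 h and 2 h (y axis, bars for the SE of the edgeR fit) for each AP-1 gene in PBS, flagellin and SB203580 plus flagellin. FOSB lies between -3.30 and -3.04 and ATF3 between -1.45 and -1.27 in the 3 treatments, and the JUN genes lie within 0.40 of 0.

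JUNB and JUND differed between the sets of replicates more than between treatments. JUNB averaged 230.0 ± 54.8 CPM (SD, 12 libraries) in replicates 1 and 2 and 116 ± 40.1 in replicates 3 and 4, and JUND 131 ± 32.7 and 73.5 ± 14.4. JUN lay the other way, at 278 ± 48.0 and 341 ± 68.5. Club and secretory markers moved with the sets as given above, and their part in these levels was not tested.

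Members were also compared by their pattern over the 24 libraries, with Pearson's r of log2 CPM after subtracting each set's mean. These are descriptions, since libraries share groups, times and depth. FOSB and ATF3 were the most alike pair (r = 0.95), then FOS and FOSB (0.94) and FOS and ATF3 (0.89), and JUNB and ATF3 were the least alike (0.17). Among all other tested genes with a symbol, FOSB was most like NR4A3, an immediate early nuclear receptor (0.97), FOS was most like FOSB itself and then CAPN14 (0.93), and ATF3, after FOSB, was most like SGMS2 (0.94). FOSL1 was most like SLC19A2 and KLF6 (0.93 each), followed by CSRNP1 (0.92). FOSL2 was most like HES1 (0.93) and SERPINB5 (0.93). JUNB was most like INAVA (0.94), with LPAR5 and FBRS at 0.79. JUND was most like C1orf122 (0.89), and JUN had no close match, with UBE2L6 first at 0.78.

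Genes around AP-1 were taken from lists by role. Over all genes, 0.325% were called with flagellin at 2 h with no block, 1.07% with the replicate block and 2.24% with the set term. Of 37 tested genes of the MAP kinase cascades that act on AP-1, 0 were called at 2 h with flagellin (edgeR, no block). MAP3K8, a kinase upstream of ERK and JNK, had a log2 difference of 2.32 (SE 0.67, adjusted p = 0.294). It was called with the replicate block (2.45, SE 0.22, adjusted p = 1.6e-06), where 1 of 37 was. Of 19 factors that bind the FOS and JUN promoters 0 were called with no block. With the block NFKB1 rose by 1.08 (SE 0.25, adjusted p = 0.0378) and SP3 fell by 0.33 (SE 0.075, adjusted p = 0.0411). Of 18 proteins that modify FOS and JUN 0 were called in either fit. PIAS1, a SUMO ligase, had a log2 difference of -0.14 (SE 0.12).

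Downstream, 2 of 38 tested AP-1 target genes rose with flagellin at 2 h and 0 fell, with a median of 0.16 over the list. CXCL8, a neutrophil chemokine, rose by 4.30 (SE 0.75, edgeR adjusted p = 0.00943), as did PLAUR, which encodes the urokinase receptor (1.57, SE 0.29, adjusted p = 0.0144). In the blocked fit 5 rose, CSF2 (1.84) and CCL2 (2.61) among them, where 0.804% of all genes rose and 1.07% were called. With the set term 6 rose, where 1.28% of all genes rose and 2.24% were called. Of 37 other immediate early genes 1 rose, TNFAIP3, an inhibitor of NF-kB (3.25, SE 0.38, adjusted p = 7.0e-05), and 0 fell. With the block 4 rose, NFKBIZ (2.51), ZFP36 (0.97), IER3 (1.20) and TNFAIP3.

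With SB203580 at 2 h 0 of 38 target genes and 0 of 37 immediate early genes were called (edgeR, no block), and the medians were -0.26 and -0.42 against 0.012 over all genes. DUSP1, a MAP kinase phosphatase, had a log2 difference of -0.74 (SE 0.15, adjusted p = 0.212) and PLAUR of -0.95 (SE 0.28, adjusted p = 1.00). With the set term, where 0.261% of all genes were called lower, 6 immediate early genes fell, TNFAIP3 (-0.93), ZFP36 (-1.11), ZFP36L1 (-0.65) and DUSP1 (-0.73) among them, and so did 2 target genes, PLAUR (-0.95) and PLAU (-0.98). Of the 19 promoter-binding factors 1 fell in that fit, MEF2D, a factor that binds the JUN promoter (-0.43, SE 0.071, adjusted p = 0.00995). The replicate block called 1 immediate early gene, ZFP36 (-1.12).

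Between the times in PBS 7 of 37 other immediate early genes fell and 0 rose, with a median of -0.39, where 4.88% of all genes fell and 10.2% were called. NR4A3 fell by 4.23 (SE 0.83, edgeR adjusted p = 0.00289), and among the others that fell NR4A1 (-2.06, SE 0.37), DUSP1 (-0.71, SE 0.15) and GADD45B (-0.64, SE 0.15) had the smallest adjusted p. With the block 11 fell, where 11.4% of all genes fell and 22.5% were called. Of the 38 targets 1 rose, SPP1 (1.72), and 2 fell, AREG (-1.08) and IL6 (-2.65). Of the 37 MAP kinase genes MAPK3, which encodes ERK1, rose by 0.47, and the JNK genes MAPK8 (-0.64) and MAPK9 (-0.36) fell. SP3 was the only 1 of the 19 promoter-binding factors called (-0.29), and 0 of 18 modifiers were. The p-values adjusted over all genes are given throughout, and none over a list alone.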

How the data were processed

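RNA of 24 cultures was sequenced with paired ends, per the labels. The authors deposited 1 table of whole-number read counts per gene. Tools listed in the submitters' processing notes are STAR 2.4.0a, featureCounts and Subread 1.4.6-p1, without their roles. A mouse build is listed there too, although the genes used here carry pig identifiers; neither the pig assembly nor the strand setting is given in the sources used here. Of 31868 features the 25880 pig genes were used, and library totals are sums over these.

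Counts were filtered with filterByExpr, scaled with TMM (factors 0.836 to 1.07) and tested with edgeR 4.0.16 in R 4.3.3 (1 term per group, 18 residual degrees of freedom, two-sided). DESeq2 1.42.0 was an alternative. CPM uses TMM-adjusted totals, log2 CPM a prior count of 2, and each SE was obtained by dividing the size of the log2 change by the root of its F value. A floor of 3 counts lay at 0.0827 to 0.114 CPM. The script was checked on simulated counts. The 36 pairs of libraries within groups differed by a chi-square of 10.3 to 393 per gene, so none was counted as a duplicate.

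Replicate numbers in the labels were taken to pair libraries. Same-numbered libraries deviated together in every comparison (r of 0.211 to 0.797), but the difference between the 2 sets was not removed first. That difference alone can give such values, so they cannot show a pairing by number within a set. Only 2 or 3 of the 4 pairs in each comparison were the best match of their number. Blocked values are given where they change a call. Named genes were the 8 members, the 3 genes most like each, and from each list the called genes by smallest adjusted p (up to 4), or up to 2 by smallest p where none was called; 1 gene that this rule names is not reported here. Members, lists and the set term were chosen with earlier results of these data known.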

Additional observations from a re-analysis of the deposited data

How the results depend on the processing

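Of 73 member values, each setting kept the direction and the side of the threshold for 70 with DESeq2, 72 with RLE scaling, 72 without a count filter, 67 with the replicate block and 64 with the set term at each time. The set-term fits without each 2 h library were chosen after seeing the data. Single effects of members on the interactions are covered only where the member had an unadjusted p under 0.05 at 2 h with the set term, and single members of SB203580 plus flagellin against PBS at 24 h are not covered.

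Numbers of called genes depended on the model of the replicates. With the replicate block, against the fit with no block, they were 151 against 46 for flagellin at 2 h, 5 against 1 for SB203580 under flagellin at 2 h, 114 against 26 and 9 against 1 for SB203580 plus flagellin against PBS at 2 h and 24 h, 3183 against 1440, 2664 against 1120 and 2422 against 975 for time in PBS, flagellin and SB203580 plus flagellin, and 27 against 6 for the flagellin by time interaction. The pairing changed no call of a member other than those given beside the results. With the set term they were 318, 53, 281, 65, 4700, 4095, 3838 and 38 in the same order, and 13 against 0 for SB203580 under flagellin at 24 h. DESeq2 called 105, 14, 81, 10, 1486 (time with SB203580) and 11 (interaction), and 1 for flagellin and 1 for SB203580 under flagellin at 24 h. Leaving out a library gave 15 to 42, 1 to 2, 10 to 25, 0 to 2, 835 to 1319, 710 to 1029, 625 to 836 and 5 to 8 in that order. The fewest came without PBS replicate 3 (flagellin at 2 h), PBS replicate 2 (SB203580 plus flagellin against PBS at 2 h), PBS replicate 2 at 24 h, flagellin replicate 3 at 2 h and SB203580 plus flagellin replicate 2 at 2 h (the 3 time comparisons). The cause was not tested.

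Signs that reversed belonged to values near 0 or to 24 h. With the block FOSL1 in SB203580 plus flagellin against PBS at 2 h was 0.019 and JUND over time in PBS -0.0081. On leaving out a library, log2 values ranged as follows. JUN with flagellin at 2 h lay between -0.052 and 0.28, and with SB203580 at 2 h between -0.17 and 0.078. For flagellin at 24 h the range was -0.31 to 0.43 for FOS, -0.49 to 1.06 for FOSB, -0.36 to 0.85 for FOSL1, -0.0063 to 0.21 for FOSL2, -0.0083 to 0.19 for JUN, -0.18 to 0.36 for JUNB and -0.25 to 0.38 for JUND. For SB203580 under flagellin at 24 h it was -0.76 to 0.00050 for FOS, -1.44 to 0.16 for FOSB, -0.95 to 0.25 for FOSL1, -0.16 to 0.034 for FOSL2 and -0.11 to 0.0068 for JUN. Against PBS at 2 h SB203580 plus flagellin gave -0.13 to 0.091 for FOSL1, -0.11 to 0.22 for JUN, -0.41 to 0.094 for JUNB, -0.22 to 0.22 for JUND and -0.15 to 0.048 for ATF3. Over time JUND ranged from -0.22 to 0.24 in PBS and from -0.46 to 0.14 with flagellin, and JUNB from -0.30 to 0.48 with SB203580 plus flagellin. The flagellin by time interaction ranged from -1.29 to 0.26 for FOSB and from -0.26 to 0.013 for ATF3, and that of SB203580 from -0.36 to 1.24 for FOSB.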

Other observations

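Other bZIP factors, which can pair with or compete with AP-1, were measured too (31 tested of 40 listed). With flagellin at 2 h 0 were called with no block (edgeR). In the blocked fit (replicate number) 0.804% of all genes rose and 1.07% were called. Of the bZIP factors 2 rose in that fit, CEBPD, a C/EBP factor of the acute-phase response (0.81, SE 0.13, edgeR adjusted p = 0.00179), and BATF2, a BATF factor that pairs with JUN proteins (1.56, SE 0.33, adjusted p = 0.0210). With no block their log2 differences were 0.78 (SE 0.27) and 1.54 (SE 0.71). BATF2 did not lie lower with SB203580: its difference from flagellin was 0.89 (SE 0.30, edgeR adjusted p = 0.652, replicate block), and against PBS it rose by 2.44 (SE 0.33, adjusted p = 0.000367, replicate block).

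Between 2 h and 24 h in PBS 3 of these 31 rose and 2 fell (edgeR, no block), where 10.2% of all genes were called. NFE2L2, the NRF2 factor of oxidant defence, fell by 0.60 (SE 0.13, adjusted p = 0.00666), and BACH1, a repressor of NRF2 targets, fell by 0.87 (SE 0.23, adjusted p = 0.0187). TEF, a factor of the circadian clock output, rose by 0.56 (SE 0.15, adjusted p = 0.0192). With the block 5 rose and 5 fell, where 22.5% of all genes were called, with DBP, a relative of TEF, at 1.49 (SE 0.22, edgeR adjusted p = 0.000221). FOSB, for comparison, fell by 3.04 over the same time.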
